A study of Homo sapiens with 4 samples.

Results

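Cholesterol and fatty acid synthesis were examined through 36 named genes: enzymes of the sterol pathway, enzymes of the fatty acid pathway, the SREBP system that regulates both, and transporters of cellular sterol. The genes were selected on measured values of these same libraries, so the values below describe them and test nothing about them. Of the 36 genes, 21 were listed in the deposited table, which holds 6828 genes. The listed genes comprise 9 of sterol synthesis, 3 of the SREBP system, 7 of fatty acid synthesis and 2 of sterol transport. The other 15 have no row in the table used here, namely MVK, PMVK, MVD, FDFT1, SQLE, TM7SF2, NSDHL, HSD17B7, EBP, INSIG2, SREBF1, SCAP, ACACA, ELOVL6 and NPC1L1.

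A549, a line of human lung adenocarcinoma cells, was profiled by RNA-seq at 72 h after lentiviral infection with control shRNA (shctrl) or with shRNA against the lncRNA USP2-AS1 (shUSP2-AS1), to find genes whose expression depends on USP2-AS1. Each group had 2 libraries, and both groups shared the infection, the PLKO.1 vector and the puromycin selection. The sources used here do not say which USP2-AS1 shRNA was used, and these data hold no second shRNA, no rescue and no uninfected cells. In a bulk library, fewer cells of one kind and less RNA per cell cannot be told apart.

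Values are normalized read counts, that is, reads per gene divided by a size factor of the library. No adjusted p in the deposited table exceeded 0.05, so each listed gene had passed the threshold of the deposited comparison and a gene that had not passed could not appear. The reads on listed genes were 10772788 to 14120472 per library. USP2-AS1 itself was covered by 24 and 22 reads in shctrl and by 2 and 7 in shUSP2-AS1 (log2 fold change of -2.39, standard error 0.56). Of 14 epithelial and A549 marker genes 6 were listed, 3 higher (KRT19 by 0.75, AKR1B10 by 0.26 and NQO1 by 0.11 on the log2 scale) and 3 lower (KRT18 at -1.05, which was called lower, KRT8 at -0.77 and KRT7 at -0.49). Their summed level, most of it from KRT8, AKR1B10 and KRT7, was 247486 to 260464 in shctrl and 200525 to 205479 in shUSP2-AS1. Of 14 marker genes of other cell types 3 were listed, and all 3 were higher in shUSP2-AS1, COL1A1 by 1.05, TP63 by 1.58 and ACTA2 by 1.79 on the log2 scale. Their summed level was 424 and 475 in shctrl and 1099 and 1204 in shUSP2-AS1, none was at 0 in any library, and their part in the results below was not tested.

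The SREBPs are membrane-bound transcription factors of the endoplasmic reticulum. When membrane sterol is low, the escort protein SCAP carries them to the Golgi, where proteases release the active fragment, and when sterol is high the INSIG proteins hold SCAP back. SREBP-2, the product of SREBF2, acts mainly on genes of cholesterol synthesis and uptake, and SREBP-1, the product of SREBF1, mainly on genes of fatty acid synthesis. The liver X receptors (LXRs) respond to oxidized sterols and induce the exporters ABCA1 and ABCG1.

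Promoter sequences show which of these genes carry letters that SREBP and its partner NF-Y are known to bind. RefSeq promoters (GRCh38.p14, 250 bases before to 50 bases after a gene start) were matched for 18 of the 21 genes, and ABCG1, ACAT2 and FASN had no entry. These 18 genes had 26 promoters, and a gene was counted for a motif found in any of its promoters. Both strands were searched for TCACNCCAC, a form of the sterol regulatory element, for TCACNCNAC, a looser form that includes the first, for CCAAT, the NF-Y motif, for GGGCGG, the Sp1 motif, and for CACGTG, an E-box. TCACNCCAC occurred in 1 gene, SREBF2, which is 5.56% of the 18 genes against 1.39% of all 27305 genes with a promoter. TCACNCNAC occurred in 4 genes (SREBF2, FDPS, FADS2 and ACSS2), 22.2% against 3.13%. CCAAT occurred in 15 genes, 83.3% against 39.7%, and was not found in the windows of ABCA1, CYP51A1 and FADS1. GGGCGG occurred in 17 genes, 94.4% against 48.3%, and CACGTG in 5 genes, 27.8% against 8.77%. Each motif searched, GGGCGG included, thus had a higher share in the 18 genes. The 27305 genes are not limited to genes in the deposited table. They had 35116 promoters, fewer per gene than the 18 genes, which favors a match in the latter. Counted by promoter, CCAAT was in 18 of the 26, against 34.6% of all promoters. Whether the shares differ beyond these limits was not tested. These are matches of letters, not sites shown to be bound.

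The stretches below carry the looser sterol element, in capitals, and are shown because they hold 3 of the 4 matches. A CCAAT motif, which reads ATTGG on the other strand, is in capitals as well. SREBF2 is shown from 150 to 91 bases before its RefSeq start (chr22:41832955-41833014, plus strand), FDPS from 180 to 124 bases before (chr1:155308686-155308742, plus strand) and ACSS2 from 250 to 211 bases before (chr20:34876362-34876401, plus strand). The ACSS2 stretch precedes an alternative start inside the gene, which begins at 34872146 in the deposited annotation. It holds the only match found for ACSS2. Coordinates are those of GRCh38.
SREBF2: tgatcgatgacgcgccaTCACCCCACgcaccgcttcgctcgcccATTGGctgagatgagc
FDPS: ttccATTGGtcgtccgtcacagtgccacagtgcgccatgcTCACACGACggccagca
ACSS2: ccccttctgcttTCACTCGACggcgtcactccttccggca
The fourth match, in FADS2, began 220 bases before the gene start and had the same 9 letters as the match in FDPS. Of these 4 genes, SREBF2, ACSS2 and FADS2 were higher in shUSP2-AS1 and FDPS was lower.

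The next stretches are those of 4 genes without TCACNCNAC in the window but with repeated CCAAT, in capitals, and are shown because these genes were among those with the larger differences. MSMO1 (chr4:165327479-165327648, plus strand, 190 to 21 bases before the start) holds 4 CCAAT motifs, and SCD (chr10:100346998-100347057, plus strand, 235 to 176 bases before) holds 2. STARD4 (chr5:111512646-111512705, minus strand, 170 to 111 bases before) holds 2 as well, and HMGCS1 (chr5:43313518-43313577, minus strand, 165 to 106 bases before) holds 1 in the stretch shown and a further one 100 bases before the start.
MSMO1: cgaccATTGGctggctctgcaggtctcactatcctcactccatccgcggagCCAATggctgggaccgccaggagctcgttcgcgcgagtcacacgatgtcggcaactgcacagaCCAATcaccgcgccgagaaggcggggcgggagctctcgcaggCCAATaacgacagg
SCD: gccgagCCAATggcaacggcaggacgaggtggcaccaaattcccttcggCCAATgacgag
STARD4: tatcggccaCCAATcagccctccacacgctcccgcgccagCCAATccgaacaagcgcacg
HMGCS1: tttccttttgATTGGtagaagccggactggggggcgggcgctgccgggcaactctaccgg
MSMO1, SCD and STARD4 were higher in shUSP2-AS1, and HMGCS1 was lower, so that CCAAT stood in front of genes of either direction.

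Among the 21 listed genes, 14 were higher and 7 lower in shUSP2-AS1, with a median log2 fold change of 0.43. Over all 6812 genes fitted, 50.6% were higher and the median was 0.19, which turned to -0.23 among genes with a mean of at least 100 and to -0.16 among genes with at least 10 reads in every library. A gene was called where limma gave an adjusted p below 0.05 with a log2 fold change of 1 or more in either direction. The listed genes had already passed the threshold of the deposited comparison, and 6811 of the 6812 fitted had an adjusted p below 0.05. The fold change thus decided the call. In this way 4 of the 21 were called higher (SCD, MSMO1, ABCA1 and ABCG1) and 1 was called lower (CYP51A1). The background was 16.1% of the genes fitted called higher and 13.5% called lower. The shctrl and shUSP2-AS1 libraries did not overlap for any of the 21, as for 100% of the genes fitted. Since the genes were selected on this contrast, nothing is read from these counts. The gene nearest the threshold of 1 on the outside was STARD4, at 0.97, and the nearest inside was SCD, at 1.22.

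**Figure D1:**
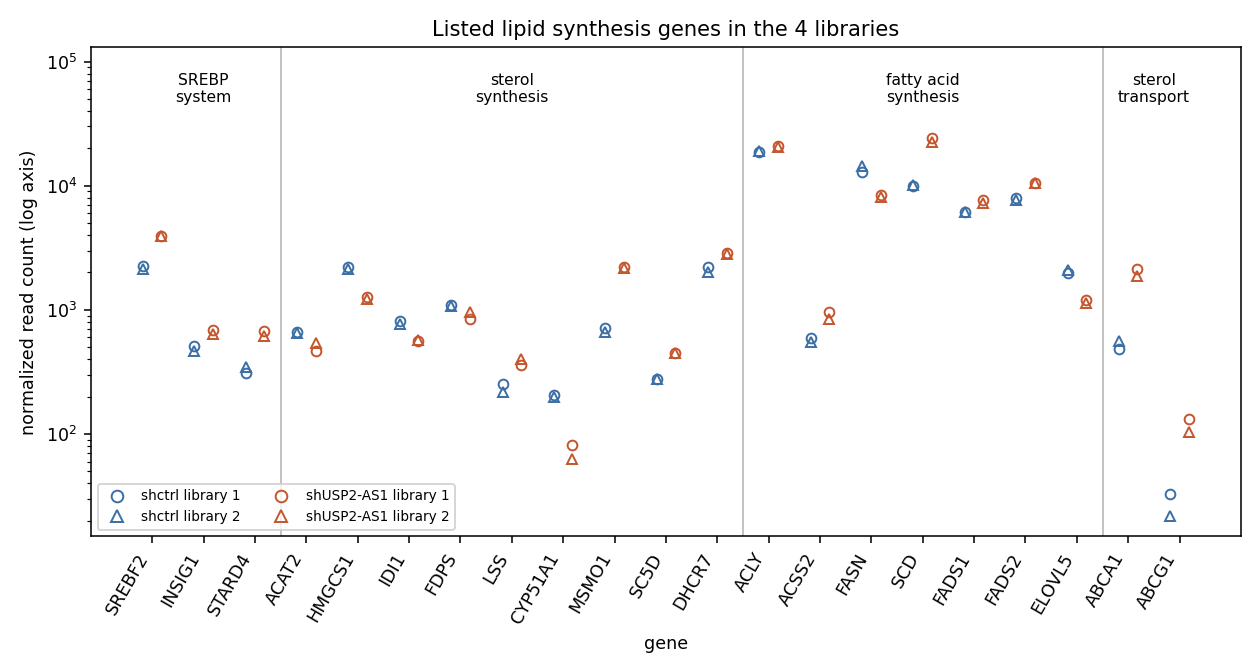
Normalized read count (log axis) of the 21 listed genes in each of the 4 libraries, with shctrl in blue and shUSP2-AS1 in orange and the library number given by the symbol. SCD lies at 9911 and 10084 in shctrl and at 24006 and 22673 in shUSP2-AS1, whereas FASN moves the other way, from 12995 and 14484 to 8480 and 8080.

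In the SREBP system, all 3 listed genes were higher in shUSP2-AS1. SREBF2 (ENSG00000198911, chromosome 22, 41833079 to 41907307, plus strand), which encodes SREBP-2, was measured at 2236 and 2120 in shctrl and at 3931 and 3956 in shUSP2-AS1. Both shUSP2-AS1 libraries lay above both shctrl libraries, with means of 2178 ± 82.0 and 3943 ± 17.6 (SD, n = 2 each), a ratio of 1.81 and a log2 fold change of 0.86 (standard error 0.05). STARD4 encodes a cytosolic protein that carries cholesterol between membranes and is itself an SREBP target. It was measured at 312 and 347 in shctrl and at 676 and 619 in shUSP2-AS1, a ratio of 1.96 and a log2 fold change of 0.97 (standard error 0.09). The fold change of STARD4 lay so close to 1 that it passed this threshold without shctrl replicate 2 (1.05), without shUSP2-AS1 replicate 2 (1.04) and with upper quartile scaling (1.03).

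INSIG1 encodes the anchor that retains SCAP in the endoplasmic reticulum, and its transcription is induced by SREBP. It was measured at 511 and 463 in shctrl and at 684 and 641 in shUSP2-AS1. The lower shUSP2-AS1 library was above the higher shctrl library, with a ratio of 1.36 and a log2 fold change of 0.44 (standard error 0.09). The level of SREBF2 per kilobase was 2.11 and 2.21 times that of INSIG1 in shctrl and 2.78 and 2.98 times in shUSP2-AS1.

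The 9 listed genes of sterol synthesis did not share a direction. Of these, 4 were higher and 5 lower in shUSP2-AS1, and their median log2 fold change was -0.27, with a range of -1.49 to 1.67. This median is the value of one gene, FDPS, and it was -0.17 without shUSP2-AS1 replicate 1 and -0.36 without shUSP2-AS1 replicate 2. The order of the enzymes along the pathway divides them further. This division was made after the values were seen and is given as a description.

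The first part of the pathway makes farnesyl diphosphate from acetyl-CoA, and the 4 listed enzymes of this part were all lower in shUSP2-AS1, with a median log2 fold change of -0.44. ACAT2 encodes the cytosolic thiolase that joins acetyl-CoA units, and it was measured at 668 and 652 in shctrl and at 469 and 536 in shUSP2-AS1 (log2 fold change of -0.39, standard error 0.09). HMGCS1 encodes the cytosolic HMG-CoA synthase and differed most of the 4, at 2230 and 2122 in shctrl and at 1270 and 1222 in shUSP2-AS1. Both shUSP2-AS1 libraries of HMGCS1 lay far below the shctrl libraries, with means of 2176 ± 76.4 and 1246 ± 34.1 (SD, n = 2 each), a ratio of 0.573 and a log2 fold change of -0.80 (standard error 0.06).

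IDI1, the isomerase of isopentenyl diphosphate, was measured at 814 and 774 in shctrl and at 559 and 572 in shUSP2-AS1 (log2 fold change of -0.49, standard error 0.08). FDPS, which makes farnesyl diphosphate, the branch point to sterols and to protein prenylation, was measured at 1098 and 1074 in shctrl and at 843 and 964 in shUSP2-AS1. The shUSP2-AS1 libraries of FDPS stood farther apart from each other (SD of 85.3) than the shctrl libraries (SD of 17.0), and the log2 fold change was -0.27 (standard error 0.07).

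The later part of the pathway, from squalene epoxide to cholesterol, had 5 listed enzymes, of which 4 were higher and 1 was lower in shUSP2-AS1, with a median log2 fold change of 0.69. MSMO1 (ENSG00000052802, chromosome 4, 165327667 to 165343164, plus strand) encodes the sterol C4-methyl oxidase. It was measured at 720 and 667 in shctrl and at 2229 and 2172 in shUSP2-AS1. Both shUSP2-AS1 libraries were far above both shctrl libraries, with means of 693 ± 37.3 and 2201 ± 40.6 (SD, n = 2 each), a ratio of 3.17 and a log2 fold change of 1.67 (standard error 0.06).

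CYP51A1 (ENSG00000001630, chromosome 7, 92112153 to 92134803, minus strand) encodes lanosterol 14-alpha-demethylase, which acts shortly before MSMO1, and it went the other way. It was measured at 208 and 200 in shctrl and at 82.0 and 63.4 in shUSP2-AS1, which were 78 and 72 reads. Both shUSP2-AS1 libraries were below both shctrl libraries, with a ratio of 0.357 and a log2 fold change of -1.49 (standard error 0.17). The ratio of MSMO1 to CYP51A1 per kilobase was 4.29 and 4.13 in shctrl and 33.6 and 42.4 in shUSP2-AS1.

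LSS, the cyclase that forms lanosterol, was measured at 251 and 216 in shctrl and at 362 and 405 in shUSP2-AS1 (log2 fold change of 0.71, standard error 0.11). SC5D, the lathosterol oxidase, was measured at 277 and 278 in shctrl and at 452 and 447 in shUSP2-AS1 (log2 fold change of 0.69, standard error 0.10). DHCR7 encodes 7-dehydrocholesterol reductase, the last step of one branch, and was measured at 2202 and 2033 in shctrl and at 2882 and 2810 in shUSP2-AS1 (log2 fold change of 0.43, standard error 0.06). In each of these genes both shUSP2-AS1 libraries lay above both shctrl libraries. Set against HMGCS1 within a library, the level of DHCR7 per kilobase was 1.59 and 1.54 times as high in shctrl and 3.65 and 3.70 times in shUSP2-AS1.

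**Figure D2:**
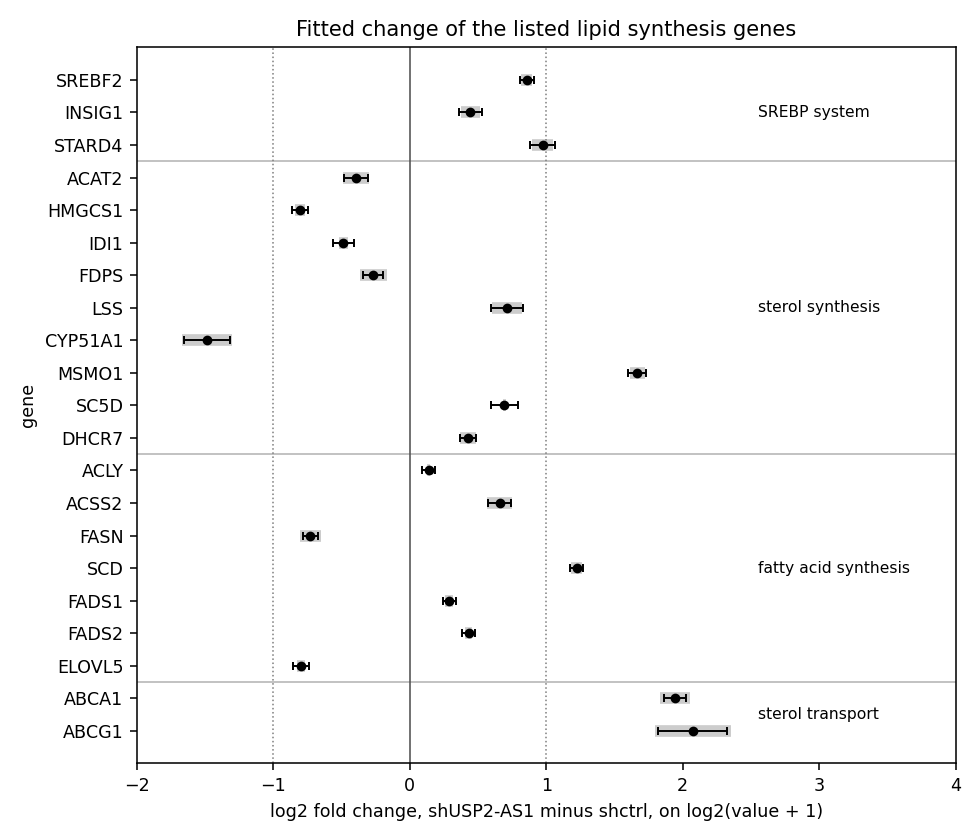
Log2 fold change (shUSP2-AS1 minus shctrl, on log2 of the value plus 1) of each listed gene, with the standard error as a bar, the range with each library left out as a gray band, and dotted lines at -1 and 1. ACAT2, HMGCS1, IDI1, FDPS and CYP51A1 lie left of 0 and the other 4 sterol enzymes right of it, and the transport genes ABCA1 and ABCG1 have the highest values.

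The fatty acid arm had 7 listed genes, of which 5 were higher and 2 lower in shUSP2-AS1, with a median log2 fold change of 0.29 and a range of -0.80 to 1.22. ACLY splits cytosolic citrate into acetyl-CoA, and was measured at 18713 and 18981 in shctrl and at 20799 and 20664 in shUSP2-AS1. These values differed little, with a ratio of 1.10 and a log2 fold change of 0.14 (standard error 0.05), which was 0.02 with RLE scaling of the listed genes and with the size factors DESeq2 computed from them. ACSS2, which makes acetyl-CoA from acetate, was measured at 588 and 551 in shctrl and at 957 and 843 in shUSP2-AS1 (log2 fold change of 0.66, standard error 0.08). Per kilobase, ACLY was 32.0 and 34.7 times as abundant as ACSS2 in shctrl and 21.9 and 24.7 times in shUSP2-AS1.

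FASN (ENSG00000169710, chromosome 17, 82078338 to 82098294, minus strand) encodes fatty acid synthase, which builds palmitate. It was measured at 12995 and 14484 in shctrl and at 8480 and 8080 in shUSP2-AS1. Both shUSP2-AS1 libraries were below both shctrl libraries, with means of 13740 ± 1053 and 8280 ± 283 (SD, n = 2 each), a ratio of 0.603 and a log2 fold change of -0.73 (standard error 0.06).

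SCD (ENSG00000099194, chromosome 10, 100347233 to 100364826, plus strand) encodes the stearoyl-CoA desaturase, which puts the first double bond into saturated fatty acids. It was measured at 9911 and 10084 in shctrl and at 24006 and 22673 in shUSP2-AS1. The means were 9998 ± 122 and 23339 ± 942 (SD, n = 2 each), a ratio of 2.33 and a log2 fold change of 1.22 (standard error 0.05). FASN, which makes the substrate of SCD, was thus lower in the same libraries in which SCD was higher. Within a library, the level of SCD per kilobase was 1.36 and 1.24 times that of FASN in shctrl and 5.03 and 4.99 times in shUSP2-AS1.

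The genes for polyunsaturated fatty acids were divided as well. FADS2, the delta-6 desaturase, was measured at 7928 and 7680 in shctrl and at 10572 and 10463 in shUSP2-AS1 (log2 fold change of 0.43, standard error 0.05). FADS1, the delta-5 desaturase, lies within the annotated span of FADS2 on chromosome 11, in the opposite orientation. It was measured at 6104 and 6131 in shctrl and at 7632 and 7322 in shUSP2-AS1 (log2 fold change of 0.29, standard error 0.05). Whether exons of FADS1 and FADS2 overlap was not examined. Both desaturases were higher in each shUSP2-AS1 library than in each shctrl library, and their ratio per kilobase (FADS2 over FADS1) was 1.26 and 1.21 in shctrl and 1.34 and 1.39 in shUSP2-AS1. ELOVL5, the elongase that works on the products of FADS2, was measured at 1992 and 2078 in shctrl and at 1196 and 1146 in shUSP2-AS1, lower in both libraries (log2 fold change of -0.80, standard error 0.06).

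As a share of the summed level per kilobase of the 7 listed fatty acid genes, SCD made up 21.3% and 21.1% in shctrl and 39.0% and 38.2% in shUSP2-AS1. The share of FASN was 15.7% and 17.1% in shctrl and 7.76% and 7.65% in shUSP2-AS1. ACLY held the largest share in shctrl, 40.6% and 40.1%, and was below SCD in shUSP2-AS1, at 34.1% and 35.0%. ELOVL5 held 5.90% and 5.99% in shctrl and 2.67% and 2.65% in shUSP2-AS1, whereas the shares of FADS1 and FADS2 together with ACSS2 moved less.

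**Figure D3:**
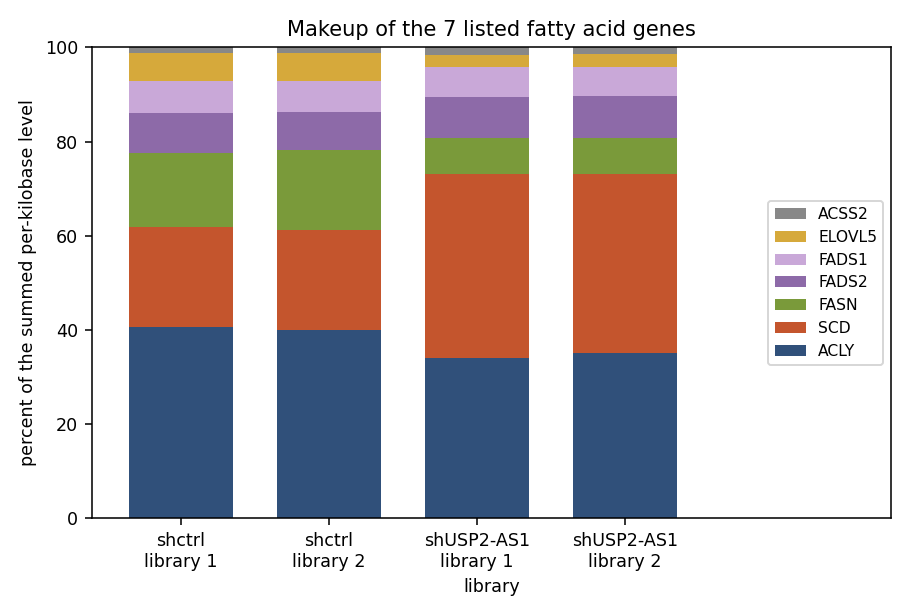
Share of each gene, in percent, in the summed per-kilobase level of the 7 listed fatty acid genes, 1 bar per library. SCD takes 21.3% and 21.1% of the bar in shctrl 39.0% and 38.2% in shUSP2-AS1, and FASN takes 15.7% and 17.1% in shctrl and 7.76% and 7.65% in shUSP2-AS1.

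When the arms were set side by side, the median log2 fold change was -0.27 for the 9 sterol synthesis genes and 0.29 for the 7 fatty acid genes, a difference of -0.56. The difference of the means was smaller, -0.17, and the difference of the medians was -0.43 without shUSP2-AS1 replicate 1 and -0.68 without shUSP2-AS1 replicate 2. Per library, the mean log2 level of the sterol genes relative to their shctrl mean was 0.04 and -0.04 in shctrl and 0.00 and 0.01 in shUSP2-AS1, so that these groups overlapped. The mean of the fatty acid genes was -0.01 and 0.01 in shctrl and 0.21 and 0.14 in shUSP2-AS1, where the groups did not overlap. These means lay near the median log2 fold change of all genes fitted, 0.19, which RLE scaling moved by -0.12. A shift particular to the fatty acid genes is thus not read from them. Sterol minus fatty acid was 0.05 and -0.05 in shctrl and -0.20 and -0.13 in shUSP2-AS1.

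Early and late sterol enzymes were divided after the values were seen, so their difference is not ranked against that of the arms. The late enzyme CYP51A1 (log2 fold change of -1.49) was lower, as the early enzymes were. The mean of the early enzymes, relative to shctrl, was 0.03 and -0.03 in shctrl and -0.53 and -0.44 in shUSP2-AS1. The mean of the late enzymes was 0.05 and -0.05 in shctrl and 0.43 and 0.37 in shUSP2-AS1. Late minus early was 0.97 and 0.82 in the shUSP2-AS1 libraries, against 0.02 and -0.02 in the shctrl libraries.

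**Figure D4:**
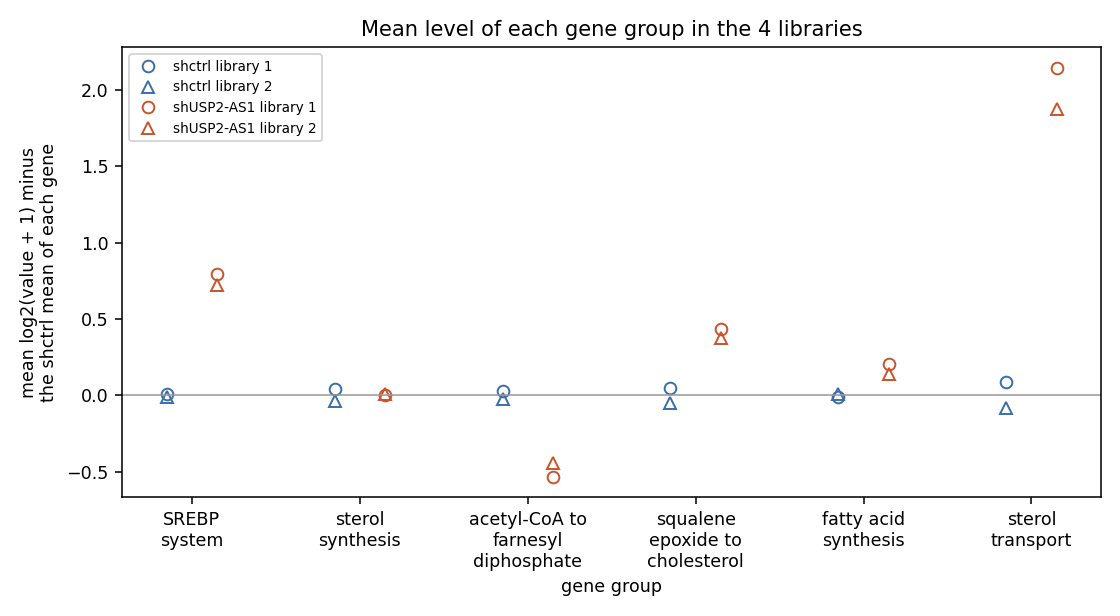
Mean log2(value + 1) of each gene group in each library, relative to the shctrl mean of each gene, with shctrl in blue and shUSP2-AS1 in orange. The 9 sterol genes average near 0 in all 4 libraries because the early enzymes (-0.53 and -0.44) and the late enzymes (0.43 and 0.37) lie on opposite sides in shUSP2-AS1.

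Both listed sterol exporters were higher in shUSP2-AS1. ABCA1 (ENSG00000165029, chromosome 9, 104781006 to 104928155, minus strand), which loads cholesterol and phospholipid onto apolipoprotein A-I, was measured at 483 and 564 in shctrl and at 2147 and 1881 in shUSP2-AS1. Its means were 523 ± 57.0 and 2014 ± 188 (SD, n = 2 each), a ratio of 3.85 and a log2 fold change of 1.94 (standard error 0.08). ABCG1, which passes cholesterol to larger lipoprotein particles, was the gene with the lowest counts, at 34 and 20 reads in shctrl and 125 and 117 reads in shUSP2-AS1. Its normalized values were 32.9 and 22.0 in shctrl and 131 and 103 in shUSP2-AS1, a ratio of 4.28. The log2 fold change of ABCG1 was 2.07 with a standard error of 0.25, about as large as that of ABCA1 but less precise, and it ranged from 1.79 to 2.35 with each library left out. Relative to ABCG1, the level of ABCA1 per kilobase was 7.99 and 13.9 times as high in shctrl and 8.88 and 9.93 times in shUSP2-AS1, which overlapped between the groups.

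Compared per kilobase of gene length, the order of the 21 genes in shctrl was led by ACLY (3619 ± 36.5, SD, n = 2), SCD (1906 ± 23.3) and FASN (1474 ± 113). These neighbors differed beyond their spread. In shUSP2-AS1 the order was SCD (4450 ± 180), ACLY (3981 ± 18.3), FADS2 (997 ± 7.28) and FASN (888 ± 30.4). MSMO1 was at rank 12 in shctrl and at rank 5 in shUSP2-AS1, HMGCS1 went from rank 8 to rank 12, and ABCG1 held rank 21 in both groups. The sterol enzymes LSS and SC5D, at 32.3 ± 3.39 and 27.6 ± 0.0506 in shctrl, ranked 19 and 20.

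Some of these genes have exons that overlap those of other genes, or annotated pseudogene copies, in GENCODE release 44, and whether counting used the strand is not given in the sources used here. Exons of ACAT2 overlap those of TCP1 and SOD2 on the opposite strand, and both of these were lower in shUSP2-AS1 (log2 fold changes of -1.27 and -0.73). Exons of FADS2 overlap those of FEN1, a replication gene on the same strand, which was lower by far more (-2.08) while FADS2 was higher. Exons of CYP51A1 overlap those of 2 protein-coding genes on the same strand and of AKAP9 on the opposite strand, and AKAP9 was higher (0.51). Pseudogene copies are annotated for CYP51A1 (3), IDI1 (3), FDPS (8) and SCD (1). The part of these overlaps and copies in the values was not tested.

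The neighboring lipid pathways were described with 7 lists of 208 genes, of which 101 were listed and fitted. Of these, 70 were higher and 31 lower in shUSP2-AS1, with a median of 0.45, and 11 were called higher and 7 lower, against 16.1% and 13.5% of all genes fitted. In the list of other isoprenoid and sterol enzymes, 7 of 12 were higher and 5 lower, with 3 called higher and 2 lower. SULT2B1, a sulfotransferase of cholesterol, was at 196.2 and 201.1 in shctrl and at 55.7 and 60.7 in shUSP2-AS1 (log2 fold change of -1.75). FNTB, the beta subunit of the enzyme that attaches farnesyl to proteins, was at 210 and 190 in shctrl and at 86.2 and 100.4 in shUSP2-AS1 (-1.09). FAXDC2 was at 23.2 and 29.7 in shctrl and at 93.6 and 91.6 in shUSP2-AS1 (1.78), and the called genes CYP46A1 (1.71) and CYP7B1 (1.23), hydroxylases of sterols, had mean values under 50.

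Of the genes that process SREBP or sense sterol, 15 were listed, 8 higher and 7 lower, with a median of 0.29. SEC23A, a coat subunit of the vesicles that leave the endoplasmic reticulum, fell from 2549 and 2642 in shctrl to 594 and 620 in shUSP2-AS1 (log2 fold change of -2.09, standard error 0.06). ERLIN1, a membrane protein of the endoplasmic reticulum that restrains SREBP, fell from 1505 and 1515 to 632 and 667 (-1.22, standard error 0.07). Both were called lower and none of the 15 was called higher. Of all genes fitted, 13.5% were called lower and 16.1% higher, so nothing is read from these counts. ERLIN2, also listed, was higher (0.29). The other listed coat subunits were not all lower, since SEC24D (0.89), SEC24A (0.62) and SEC31A (0.44) were higher, and the SREBP protease gene MBTPS1 was at 0.41.

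Of the genes of sterol uptake, esterification and traffic, 16 were listed, 14 higher and 2 lower, with a median of 0.58. Of these, 3 were called higher and 0 lower, against 16.1% and 13.5% of all genes fitted. LIPA, the lysosomal acid lipase that frees cholesterol from its esters, rose from 1697 and 1589 in shctrl to 4263 and 4242 in shUSP2-AS1 (log2 fold change of 1.37, standard error 0.05). MYLIP, a ubiquitin ligase for lipoprotein receptors and an LXR target, rose from 58.9 and 75.8 to 168 and 162 (1.29, standard error 0.18). The receptor genes LRP1 (0.84), VLDLR (0.67) and SCARB1 (0.62) were higher and LRP8 (-0.26), a further receptor gene, was lower. NPC2 (0.71) and NPC1 (-0.26), whose proteins move cholesterol out of the lysosome together, lay on opposite sides of 0.

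Of the other LXR genes and targets, 6 were listed, 3 higher and 3 lower, with a median of 0.03. SMPDL3A, an LXR-induced phosphodiesterase gene, rose from 21.3 and 35.2 in shctrl to 77.8 and 81.0 in shUSP2-AS1 (log2 fold change of 1.5, standard error 0.27). LPCAT3 (0.48), which encodes a phospholipid acyltransferase, was also higher, whereas the receptor partner RXRA (-0.42), the corepressor NCOR1 (-0.46) and MLX (-0.48) were lower. The log2 fold changes of ABCA1 (1.94) and ABCG1 (2.07) were above those of all 6 of these genes.

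Of the other genes of fatty acid synthesis and elongation, 17 were listed, 13 higher and 4 lower, with a median of 0.57. ELOVL4, the elongase of very long chains, rose from 35.8 and 38.5 in shctrl to 217 and 207 in shUSP2-AS1 (log2 fold change of 2.48, standard error 0.18). ELOVL7, an elongase of long saturated chains, fell from 400.0 and 374.7 to 89.4 and 106.5 (-1.98, standard error 0.13). With ELOVL5 at -0.80 and ELOVL1 at 0.57, the listed elongases had values on both sides of 0. The second desaturase gene SCD5 was at 0.90 and the third member of the FADS cluster, FADS3, at 0.80, so that SCD, SCD5, FADS1, FADS2 and FADS3, the listed desaturase genes, were all higher.

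**Figure D5:**
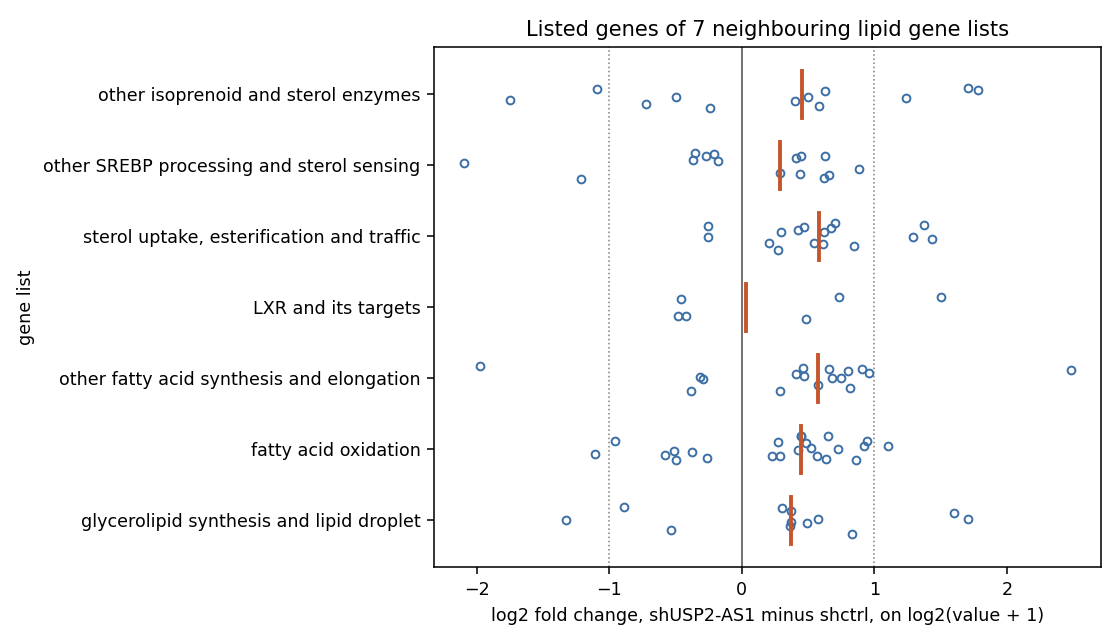
Log2 fold change (shUSP2-AS1 minus shctrl) of the 101 listed genes of 7 neighboring lipid gene lists, 1 open circle per gene and a bar at each list's median, with dotted lines at -1 and 1. Few genes lie near 0 because the table holds genes that had passed a threshold, and the highest and the lowest circle are ELOVL4 (2.48) and SEC23A (-2.09).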

How the data were processed

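Total RNA of A549 cells was sequenced, with 2 libraries per group. Per the submitters' processing notes, HISAT2 (2.0.5), featureCounts (1.5.0-p3), DESeq2 (1.20.0) and hg38 were used, and the annotation is not given in the sources used here. The authors deposited 1 table with a normalized signal per gene and library (counted reads over the size factor of the library), beside the results of their own comparison (its fold changes, its p-values and their adjusted form), which were not used. The headers of the value columns do not spell out the group names. They were matched to libraries by the heading of the comparison and the library number in the titles, and 0 value columns were left unmatched. All values (100% within a tolerance of 0.1) were whole reads times a constant. Libraries of a group were farther apart than counting error allows (chi-square per degree of freedom of 3.75 and 3.84), so 4 samples were used. The methods call them biological replicates, the labels do not name separate cultures, and p-values then measure the spread between these samples, which may be technical.

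Genes had to reach a mean of 10 (6812 did, and 16 were left out), and their log2(value + 1) was fitted with limma (3.58.1, R 4.3.3) with a trend, adjusted by Benjamini-Hochberg over all of them. On this scale the change of a gene with few reads is understated, and the sums of reads cover listed genes, not whole libraries. Levels per kilobase used the deposited gene length. Alternatives were edgeR (4.0.16) and DESeq2 (1.42.0) on recovered reads, RLE, TMM and upper quartile scaling, other filters, thresholds and pseudocounts, the replicate number as a block, and each library left out. The fit was also run on simulated data in which most genes did not change. The deposited table holds only genes past a threshold, so that run cannot say how the fit performs on it. The members and the lists were chosen with earlier results of these data known. All listed members are named, and of each other list the called genes with a mean of at least 50, up to 3 per direction; further genes were named after their values were seen. The values of some genes that this rule gives are not reported here.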

Additional observations from a re-analysis of the deposited data

How the results depend on the processing

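Under the alternatives none of the fold changes of the 21 genes, nor the medians of the sterol and fatty acid genes, changed direction. For the 21 genes the libraries of the groups did not overlap, so leaving a library out could not reverse a direction. Filters, fold thresholds and the replicate block left the fold changes of fitted members as they were. Only scaling, pseudocounts and other methods could have changed a direction. The median of all genes did change direction, from 0.19 to -0.23 with a mean of at least 100 and to -0.16 with at least 10 reads in every library, which fit fewer genes. The median of the sterol synthesis genes was -0.39 with RLE scaling, -0.38 with the size factors DESeq2 computed from the listed genes and -0.21 with upper quartile scaling, and that of the fatty acid genes was 0.17, 0.17 and 0.35. RLE scaling moved the median of all genes by -0.12, upper quartile scaling by 0.06 and TMM scaling by -0.01. With each library left out, the sterol median ranged from -0.36 to -0.17, and the difference of the medians from -0.68 to -0.43. It was -0.17 with the mean in place of the median and -0.67 without FADS1, FADS2 and ELOVL5. With a threshold of 1.5-fold, 13 of the 21 genes were called (9 higher and 4 lower), against 60.8% of all genes fitted. Of the neighboring lists 46 genes were called (36 and 10). With no fold threshold 21 and 101 were called, against 6811 of the 6812 genes fitted, so nothing is read from these counts. The share of the 18 genes with the sterol element in any promoter was 22.2% with the looser form, against 5.56% with the stricter form. The deviations of same-numbered libraries from their group means had a correlation of -0.04 (2 pairs), and with the replicate block 5 of the 21 genes were called, as without it. The block cannot change a fold change in this balanced design, and the fold change decided the call, so this count says nothing about pairing. With 2 libraries per group and only listed genes, genes that did not differ cannot be counted.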

Other observations

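Of 34 genes of fatty acid oxidation, 23 were listed, 16 higher and 7 lower in shUSP2-AS1, with a median log2 fold change of 0.45. Of these, 1 was called higher and 1 lower, against 16.1% and 13.5% of all genes fitted. SLC25A20, which carries acylcarnitines into mitochondria, rose from 225 and 212 in shctrl to 443 and 497 in shUSP2-AS1 (1.10, standard error 0.11). ECI2, an isomerase that prepares unsaturated chains for oxidation, fell from 493 and 449 to 197 and 240 (-1.11, standard error 0.12). CPT1A, the entry step of mitochondrial oxidation, was at 0.45, PPARA, a transcription factor of oxidation genes, at 0.92, and both subunit genes of the trifunctional protein, HADHA (0.57) and HADHB (0.45), were higher. The number of called genes in this list rested on single libraries, since it was 1 without shUSP2-AS1 replicate 1 and 4 without shctrl replicate 2, against 2.

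Of 38 genes of glycerolipid synthesis and the lipid droplet, 12 were listed, 9 higher and 3 lower, with a median of 0.37. GPAM, the mitochondrial acyltransferase of the first step, fell from 402 and 393 in shctrl to 176 and 142 in shUSP2-AS1 (-1.33, standard error 0.13), whereas GPAT3 (0.37) and GPAT4 (0.30), which encode acyltransferases of the endoplasmic reticulum for the same step, were higher. CDS1, which makes CDP-diacylglycerol, rose from 46.4 and 47.3 to 167 and 144 (1.71, standard error 0.19), and CIDEC, a lipid droplet protein, from 26.1 and 33.0 to 78.9 and 104.8 (1.60, standard error 0.25). PLIN2, which coats lipid droplets, was at -0.53.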
